A study of Mus musculus with 23 samples.

Results

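The genes described here are signals that cells of the B lineage can send to other immune cells: the cytokines IL10, EBI3, IL12A and TGFB1, the tumor necrosis factor family ligands TNF, LTA, LTB and TNFSF11, and the chemokines CCL22 and CCL3. They were chosen by name, 10 names in all, and the table's entry for each name was taken. An entry was found for 9 of the 10, out of 15881 distinct expression profiles, and CCL3 was not analysed here. All 9 passed the filter on low values, which asked for at least 1 CPM (a gene's count relative to the library's total) in at least 4 of the 23 libraries.

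The samples were 7 tumors taken from mesenteric lymph nodes (MLN) and 7 taken from spleens of IL6Myc transgenic mice, a myeloma model that carries IL6 and Myc transgenes, plus B cells from spleens of wild-type Balb/c mice. Those B cells were either quiescent (4 libraries, untreated) or activated (5 libraries, 1 µg/ml of the bacterial product lipopolysaccharide, LPS, for 16 hours). The tumors are labelled malignant plasma cells, were untreated, and came from 8 mice, of which 6 gave both an MLN and a spleen tumor. What drives the transgenes, the tumor mice's strain and all ages are not given in the sources at hand. All samples had been enriched for B cells by magnetic removal of other cells before RNA was made, so they still hold whatever escaped removal. Whether each control library is a different mouse is not labelled, so p-values against controls may measure technical spread only.

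LTA and LTB are lymphotoxins: LTA is secreted alone or held at the cell surface by LTB, and the surface form keeps lymph node and spleen architecture in place through the receptor LTBR. TNF is the inflammatory relative of LTA and acts through TNFRSF1A and TNFRSF1B. TNFSF11 (RANKL) drives the formation of bone-resorbing osteoclasts, the cells behind bone loss in myeloma. IL10 and TGFB1 restrain immune responses, EBI3 and IL12A are subunits that pair with each other or with other chains to form the cytokines of the IL12 family, and CCL22 attracts T cells that carry the receptor CCR4. In B cells, many of these genes respond to Toll-like receptor ligands such as LPS through NF-kB.

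Promoters are shown for LTB, EBI3 and CCL22, because LTB was much lower and CCL22 much higher in LPS-activated than in quiescent B cells, and EBI3, which also rose, shares with LTB the motif marked. The sequences are RefSeq's for mouse build GRCm38.p6, from upstream of the gene's start to a little past it. The submitters' processing notes name GRCm39, to which these positions do not carry over. They lie at chr17:35194257-35194556 (plus strand), chr17:55952373-55952672 (plus strand) and chr8:94745434-94745733 (plus strand). Capitals mark matches to the kappa-B consensus, the site that NF-kB proteins bind, searched on both strands.
LTB: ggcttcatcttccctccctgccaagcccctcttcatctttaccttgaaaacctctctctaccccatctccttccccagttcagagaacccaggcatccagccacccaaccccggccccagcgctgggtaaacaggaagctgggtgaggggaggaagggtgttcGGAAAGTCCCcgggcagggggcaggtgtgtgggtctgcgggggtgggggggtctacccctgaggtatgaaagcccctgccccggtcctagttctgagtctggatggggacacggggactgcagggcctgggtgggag
EBI3: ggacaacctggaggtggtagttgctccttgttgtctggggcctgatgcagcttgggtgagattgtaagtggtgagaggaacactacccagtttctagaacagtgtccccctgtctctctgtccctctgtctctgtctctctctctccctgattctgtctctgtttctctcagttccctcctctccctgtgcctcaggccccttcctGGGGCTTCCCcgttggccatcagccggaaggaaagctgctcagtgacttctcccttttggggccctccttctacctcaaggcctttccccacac
CCL22: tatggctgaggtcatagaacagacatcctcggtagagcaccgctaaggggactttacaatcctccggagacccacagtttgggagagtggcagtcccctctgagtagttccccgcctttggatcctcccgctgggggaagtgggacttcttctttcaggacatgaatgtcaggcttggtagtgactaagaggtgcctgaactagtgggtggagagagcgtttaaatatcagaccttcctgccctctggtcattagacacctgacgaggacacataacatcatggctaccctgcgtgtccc
LTB and EBI3 each held 1 match, and the windows of CCL22, TNF, LTA, IL12A, TNFSF11 and TGFB1 held none, which says only that these letters are not there. Of 32851 promoter windows of this length, 4.51% held a match. In the mouse annotation Ltb, Tnf and Lta are neighbors on chromosome 17, with 1 microRNA gene between Ltb and Tnf.

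Several properties of the libraries bear on every comparison. Library totals lay between 15529671 and 24226132 in quiescent, 20194049 and 25045816 in activated, 14712455 and 21897248 in MLN tumor and 13328890 and 20091563 in spleen tumor libraries. The labelled cell type was checked with 6 plasma cell markers (SDC1, PRDM1, XBP1, IRF4, JCHAIN, TNFRSF17) and a list of 8 B cell markers (MS4A1, PAX5 and CR2 among them). None was at 0 throughout a group, and 3 of 6 plasma cell markers were higher in tumors than in quiescent cells. Of the 8 B cell markers 0 were higher and 8 lower in that comparison, with a median log2 change of -1.48 against 0.08 over all genes. In activated against quiescent cells 0 of the 8 were higher and 3 lower. The mean log2(CPM + 1) of the plasma cell markers was 5.80 to 5.99 in quiescent cells but 4.78, 5.65 and 5.13 in the spleen tumors of mice 1610, 1612 and 1615 and 5.77 in the MLN tumor of mouse 1611. These tumors thus lay below resting B cells for the markers of their label, the MLN tumor only slightly. In activated cells this mean was lower, at 4.54 to 4.79, and 6 of 6 plasma cell markers were higher in tumors than in activated cells. Markers of other cells were also present. Of 10 macrophage markers 10 were higher in tumors than in quiescent cells, with a summed level of 29.5 to 269 CPM in quiescent, 9.05 to 21.3 in activated, 600 to 3323 in MLN tumor and 245 to 4210 in spleen tumor libraries, and none was at 0 throughout a group. Of 10 T cell markers 7 were higher and 1 lower in tumors, with sums of 269 to 288, 75.5 to 91.9, 37.1 to 586 and 36.1 to 284 CPM in the same order of groups, and THEMIS was at 0 in all activated libraries. In quiescent cells CD2 (mean 200 CPM) and LCK (72.7 CPM) made up most of the T cell sum. CD3E averaged 0.255 CPM there, 12.6 CPM in MLN tumors and 2.56 CPM in spleen tumors. Of 8 stromal markers 7 were higher in tumors, with sums of 2.40 to 5.60, 3.49 to 7.43, 9.19 to 399 and 5.36 to 29.9 CPM, and LUM was at 0 in all quiescent and COL1A2 and PDGFRA in all activated libraries. Neutrophil markers (7 of 7 tested), erythroid markers (6 of 6), NK markers (5 of 7, with 1 lower), dendritic markers (5 of 6) and platelet markers (3 of 3) were higher in tumors as well. Neutrophil markers summed to 8.83 to 10.3, 7.01 to 10.5, 19.6 to 559 and 14.0 to 2121 CPM and erythroid markers to 8.44 to 23.5, 0.288 to 2.36, 12.5 to 1321 and 131 to 3744 CPM in the same order, with ELANE at 0 in all activated libraries. Finally, 3 Y-linked genes summed to 348 to 364 CPM in each quiescent library and to 0.504 to 0.912 CPM in each activated library, while MLN tumors ranged from 2.81 to 272 and spleen tumors from 3.89 to 305 CPM. The part of this difference in the comparisons with tumors was not tested. Between the control groups the effects of LPS, of culture and of this difference cannot be told apart.

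The first comparison asks how LPS-cultured B cells differ from quiescent ones. The members split evenly, with 4 higher (CCL22, IL10, EBI3, TNFSF11) and 4 lower (LTB, IL12A, LTA, TGFB1) in activated cells and TNF not past the threshold. The threshold was an adjusted p of 0.05 in edgeR's quasi-likelihood test. At this threshold 59.5% of the 11637 genes tested were called, 25.5% higher and 34.1% lower, so a call was common among all genes. The median log2 change over the 9 members was 0.14, and over all genes tested -0.15.

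CCL22 stood at 0.872, 0.865, 1.09 and 0.995 CPM in the quiescent libraries 1 to 4. In the activated libraries 1 to 5 it stood at 114, 125, 72.4, 81.5 and 55.9 CPM. The groups were far apart, and the log2 change was 6.49 ± 0.54 (SE, adjusted p = 5.34e-08). IL10 was almost silent in quiescent cells, at 0, 1, 2 and 0 counts in libraries 1 to 4, and the libraries at 0 allow a level of up to 0.163 and 0.187 CPM (3 counts). It reached 2.63, 3.24, 2.64, 3.84 and 2.63 CPM in activated cells, a ratio of 77.5 (95% exact counting interval 26.3 to 378, adjusted p = 8.20e-05 in edgeR). Its fitted log2 change was 6.05 ± 1.01 and became 7.08 without quiescent library 3, which held 2 of the 3 counts. In limma on log2(CPM + 5), where such low levels count for little, it was 0.66 (adjusted p = 0.0877, against 2.88e-08 to 0.0877 over all alternatives). EBI3 rose from 14.8, 12.5, 13.0 and 9.83 CPM to 39.0, 47.0, 49.1, 42.4 and 41.5 CPM. This was a log2 change of 1.74 ± 0.46 (adjusted p = 0.00385), and no activated library came near a quiescent one.

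LTB went the other way. It stood at 891, 925, 889 and 938 CPM in quiescent cells and fell to 35.3, 44.8, 65.2, 44.5 and 66.8 CPM in activated cells. The log2 change was -4.21 ± 0.41 (adjusted p = 3.20e-07). Its partner LTA fell from 43.4, 41.6, 36.8 and 42.2 CPM to 7.40, 6.40, 8.30, 5.82 and 7.95 CPM, a log2 change of -2.58 ± 0.39 (adjusted p = 3.14e-05). IL12A fell from 27.7, 33.6, 30.5 and 39.4 CPM to 1.59, 2.24, 3.02, 2.56 and 3.40 CPM, a log2 change of -3.74 ± 0.48 (adjusted p = 5.48e-06). EBI3 and IL12A, which can pair with each other, thus went in opposite directions. TGFB1 fell the least, from 331, 330, 300 and 319 CPM to 154, 145, 140, 143 and 149 CPM, a log2 change of -1.19 ± 0.28 (adjusted p = 0.00141).

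TNF, the neighbor of the lymphotoxin genes, did not follow them. It stood at 29.4, 27.7, 28.7 and 25.9 CPM in quiescent and at 29.2, 31.3, 34.4, 31.7 and 34.6 CPM in activated cells, and the lowest activated library lay within the quiescent range. Its log2 change was 0.14 ± 0.77 (adjusted p = 0.885) in the fit that shares its spread with the tumors, where TNF varied widely, and 0.24 (adjusted p = 0.00927) when edgeR was run on the control groups alone. With the label number of the control libraries as a block it was 0.21 (adjusted p = 0.0399), and over all alternatives the adjusted p ran from 0.00927 to 0.926. TNFSF11 was scarce, with 6, 9, 7 and 13 counts in quiescent and 27, 30, 28, 39 and 25 counts in activated libraries. It passed the filter on low values through the activated libraries (at least 1.05 CPM each). No quiescent library exceeded 0.809 CPM and no spleen tumor 0.271 CPM. Its log2 change of 1.39 ± 0.53 (adjusted p = 0.0333) lost its call in edgeR without activated library 3 (adjusted p = 0.0517) or 4 (0.0618) or without quiescent library 1 (0.0861), 2 (0.0828) or 3 (0.0797). Its adjusted p over all alternatives ran from 6.18e-05 to 0.0861.

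**Figure D1:**
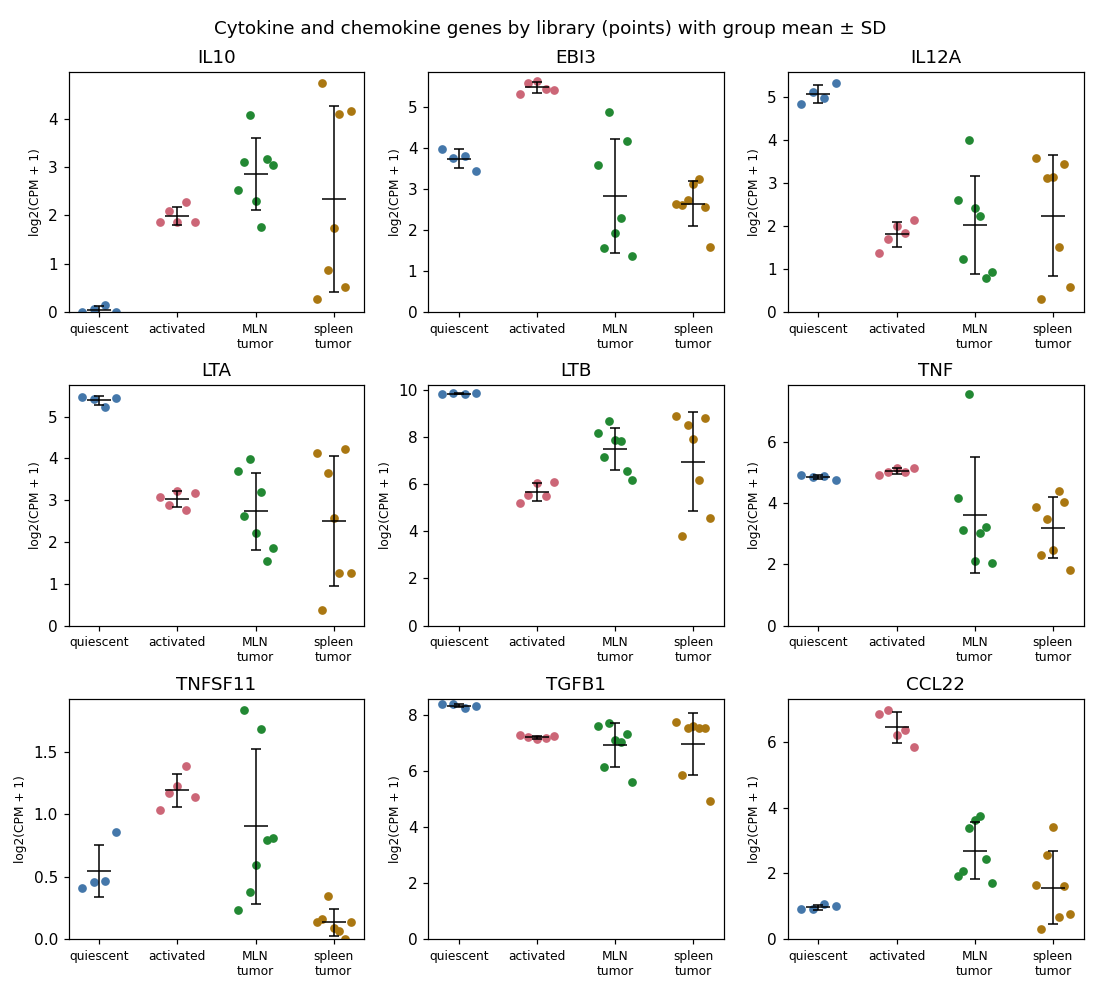
Level of each of the 9 genes on the log2(CPM + 1) scale (y axis) in every library (points) of the 4 groups, with the group mean and SD in black. LTB, LTA, IL12A and TGFB1 are highest in quiescent cells, CCL22 and EBI3 in activated cells, and the spleen tumors have the lowest TNFSF11.

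The second comparison sets the tumors against quiescent B cells, with the 2 tumors of a mouse summed so that the mouse is the replicate (8 mice). The lymphotoxins LTA and LTB, IL12A and TGFB1 were lower in tumors, IL10 and CCL22 were higher, and EBI3, TNF and TNFSF11 did not pass. Of the 11637 genes 68.7% were called here, 36.9% higher and 31.9% lower, so that 6 of 9 called members is close to the share among all genes. Of the calls 53.6% were higher, and with quantile-normalized values in limma 39.6%, so the balance of directions among all genes rests on the scaling (median log2 change of all genes 0.08 and -0.11). The median log2 change of the members was -0.69, and that of all genes tested 0.08. In bulk samples a lower level in each cell and fewer cells of the expressing type cannot be told apart.

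LTB fell in every tumor. The 7 MLN tumors ran from 71.8 (mouse 1616) over a median of 225 to 411 CPM (mouse 1611), and the 7 spleen tumors from 13.0 (mouse 1611) over 240 to 474 CPM (mouse 1610), all below the lowest quiescent library (889 CPM). The log2 change was -1.94 ± 0.33 (SE, adjusted p = 0.000109). LTA ran from 1.92 over 5.12 to 14.8 CPM in MLN tumors and from 0.296 over 4.99 to 17.7 CPM in spleen tumors, again with all 14 tumors below the lowest quiescent library (36.8 CPM). Its log2 change was -2.36 ± 0.33 (adjusted p = 2.08e-05). IL12A ran from 0.729 over 3.74 to 15.0 CPM in MLN tumors and from 0.237 over 7.69 to 11.0 CPM in spleen tumors. No tumor reached the lowest quiescent library (27.7 CPM), and the log2 change was -2.61 ± 0.39 (adjusted p = 3.57e-05). TGFB1 ran from 47.5 over 137 to 207 CPM in MLN tumors and from 29.2 over 184 to 214 CPM in spleen tumors, below every quiescent library (lowest 300 CPM), with a log2 change of -1.11 ± 0.24 (adjusted p = 0.00091). For these 4 genes the direction and the call were the same in MLN tumors alone and in spleen tumors alone.

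IL10 lay above every quiescent library in all tumors, but unevenly. MLN tumors ran from 2.41 over 7.27 to 15.9 CPM. Spleen tumors ran from 0.198 over 2.31 to 25.5 CPM, with mice 1611, 1614 and 1616 at 25.5, 16.0 and 16.9 CPM and mice 1610, 1612 and 1615 at 0.198, 0.814 and 0.424 CPM. Those of mice 1610 and 1615 rest on 4 and 8 counts. The level in mouse 1610 lies close to the 0.187 CPM that a count of 0 allows in quiescent library 4. The ratio of tumors to quiescent cells was 200 (95% exact counting interval 68.3 to 970), and edgeR gave a log2 change of 7.35 ± 1.02 (adjusted p = 1.73e-05), or 8.37 without quiescent library 3. Marker levels (mean log2) of neutrophils and plasma cells were separate between the spleen tumors with high and with low IL10, while those of macrophages overlapped. In the spleen tumors of mice 1611, 1614 and 1616 they were 7.22, 7.23 and 4.64 for neutrophils, 8.03, 7.09 and 9.25 for plasma cells and 5.94, 7.30 and 4.43 for macrophages. In those of mice 1610, 1612 and 1615 they were 1.34, 3.40 and 3.13 for neutrophils, 4.78, 5.65 and 5.13 for plasma cells and 3.94, 5.89 and 4.13 for macrophages. The spleen tumor of mouse 1613, with 2.31 CPM of IL10, had 4.75, 7.01 and 7.49. In MLN tumors the order was mixed. The MLN tumor of mouse 1611, with the highest IL10 (15.9 CPM), had 4.34 for neutrophils but the lowest plasma cell level, 5.77. Those of mice 1609 and 1610, with 4.77 and 7.61 CPM of IL10, had the highest and the lowest neutrophil level, 5.09 and 1.66. The part of these cells in the IL10 level was not tested.

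CCL22 rose by 2.22 ± 0.45 on the log2 scale (adjusted p = 0.000495). All 7 MLN tumors, from 2.25 over 4.44 to 12.3 CPM, lay above the quiescent libraries, whereas the spleen tumors ran from 0.237 over 2.07 to 9.61 CPM and 3 of 7 lay below all quiescent libraries. In spleen tumors alone the log2 change was 1.59 (adjusted p = 0.0799), and with quantile-normalized values in limma it was 0.33 (adjusted p = 0.378, with a range from 1.47e-07 to 0.378 over all alternatives). EBI3 did not pass (-0.69 ± 0.40, adjusted p = 0.129). The spleen tumors, from 2.01 over 5.26 to 8.56 CPM, all lay below the quiescent libraries, and edgeR called EBI3 lower there (-1.16, adjusted p = 0.00204). The MLN tumors ran from 1.57 over 3.93 to 28.5 CPM, and those of mice 1611 and 1615 (28.5 and 17.1 CPM) exceeded every quiescent library. Without mouse 1611 EBI3 passed over all tumors (-1.01, adjusted p = 0.0127), and limma called it lower with each of 3 pseudocounts (adjusted p = 0.0459 to 0.0484) and with quantile normalization (0.00297).

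TNF turned on 1 tumor. In the MLN tumor of mouse 1611 it reached 187 CPM, against 3.15 to 17.1 CPM in the other 6 MLN tumors and a range from 2.51 over 10.1 to 20.0 CPM in spleen tumors. The other 13 tumors all lay below the lowest quiescent library (25.9 CPM). With all mice the log2 change was -0.32 ± 0.69 (adjusted p = 0.694), and without mouse 1611 it was -1.47 (adjusted p = 0.0015). DESeq2 called TNF lower with all mice (-1.20, adjusted p = 0.00323), and over all alternatives the adjusted p ran from 0.0015 to 0.843. In the spleen tumors alone TNF was lower by edgeR (-1.48, adjusted p = 0.00837). TNFSF11 was not different over all tumors at this depth (-0.01 ± 0.49, adjusted p = 0.98), with 110 counts in the 7 MLN tumors and 13 in the 7 spleen tumors against 35 in the 4 quiescent libraries. It was called lower in spleen tumors alone (-2.15, adjusted p = 0.00656) and not in MLN tumors alone (1.11, adjusted p = 0.136). With quantile-normalized values limma called it lower over all tumors (-0.66, adjusted p = 0.000456).

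**Figure D2:**
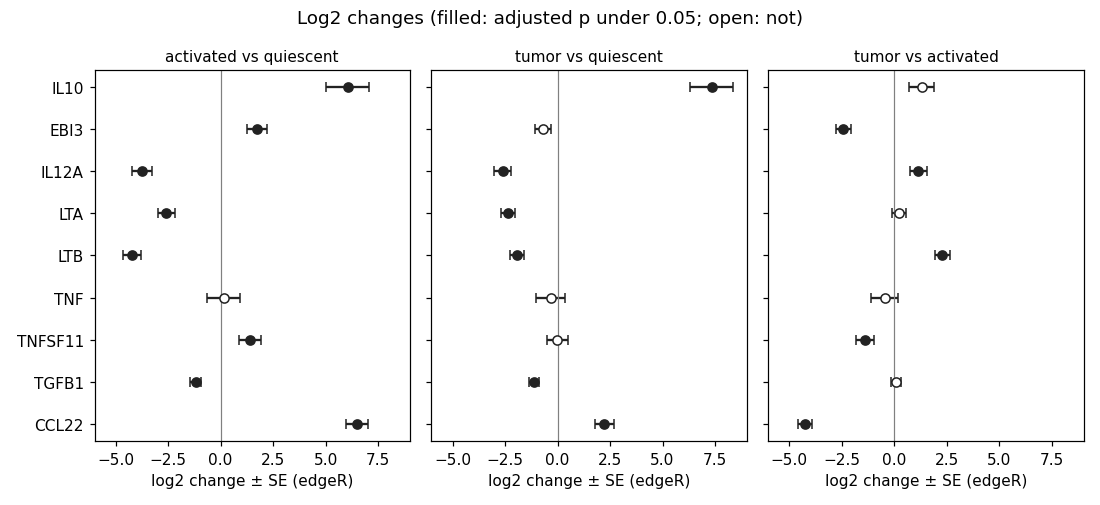
Log2 change with its SE (x axis, edgeR) of each gene (y axis) in the comparisons of activated with quiescent cells, tumors with quiescent cells and tumors with activated cells; filled points passed an adjusted p of 0.05. LTB lies at -4.21, -1.94 and 2.27 in the panels from left to right, and CCL22 at 6.49, 2.22 and -4.26.

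The third comparison sets the tumors against activated B cells. It shares the tumors with the second and the activated cells with the first, so the values are not independent of those above. LTB and IL12A were higher in tumors, CCL22, EBI3 and TNFSF11 were lower, and IL10, LTA, TNF and TGFB1 did not pass. Among all genes 63.2% were called, 36.2% higher and 27.0% lower. Of these calls 57.3% were higher, and 38.0% with quantile-normalized values in limma. The median log2 change was 0.08 over the members and 0.09 over all genes tested.

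CCL22 was lower by the widest margin, with a log2 change of -4.26 ± 0.35 (adjusted p = 6.38e-08), and the highest tumor (12.3 CPM) stayed far under the lowest activated library (55.9 CPM). EBI3 was lower as well (-2.43 ± 0.37, adjusted p = 3.23e-05), and all 14 tumors lay below all activated libraries. TNFSF11 was lower (-1.40 ± 0.42, adjusted p = 0.00821), also in spleen tumors alone (-3.56, adjusted p = 0.000118) but not past the threshold in MLN tumors alone (-0.33, adjusted p = 0.62). This gene passed the filter on low values through the activated libraries, and no spleen tumor exceeded 0.271 CPM, so the filter favored this direction. LTB was higher (2.27 ± 0.35, adjusted p = 4.08e-05), with all 7 MLN tumors above the highest activated library (66.8 CPM) and 5 of 7 spleen tumors above it. IL12A was higher by 1.13 ± 0.40 (adjusted p = 0.0216), a call lost without activated library 1 (adjusted p = 0.0584) and in each tumor tissue alone (0.243 in MLN and 0.171 in spleen tumors). In limma its adjusted p was 0.0567 on log2(CPM + 1), and quantile normalization turned its direction (-0.35, adjusted p = 0.389).

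IL10 stood at a log2 change of 1.30 ± 0.59 (adjusted p = 0.0641), and it passed without mouse 1610 (0.0481) or mouse 1612 (0.0183) and in DESeq2 (0.0357), while quantile normalization turned its direction (-0.31, adjusted p = 0.579). LTA (0.22 ± 0.33, adjusted p = 0.583) and TGFB1 (0.08 ± 0.24, adjusted p = 0.767) lay near the activated level with tumors on both sides of it. TNF changed by -0.46 ± 0.64 (adjusted p = 0.546), and by -1.61 (adjusted p = 0.000473) without mouse 1611 and -1.39 (adjusted p = 0.000219) in DESeq2. By these tests LTB was highest in quiescent cells, lower in tumors and lowest in activated cells, and CCL22 had the reverse order. However, 3 spleen tumors had less CCL22 than any quiescent library, and 2 (mice 1611 and 1616) had less LTB than any activated library. For TGFB1 and LTA, the tumors and activated cells did not differ beyond their spread, with quiescent cells above both.

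Several members varied widely among tumors, and the levels of LTB and IL12A went with the level of B cell markers. The spread of LTB over libraries was 2.72% of the mean (coefficient of variation) in quiescent, 27.2% in activated, 56.9% in MLN tumor and 85.8% in spleen tumor libraries. In spleen tumors the mean log2 level of the 8 B cell markers lay between 9.16 and 10.3 in mice 1610, 1612, 1615 and 1613 and was 6.39, 5.45 and 3.55 in mice 1614, 1616 and 1611. LTB was 474, 357, 447 and 240 CPM in the former and 71.8, 22.4 and 13.0 CPM in the latter. IL12A was 11.0, 7.69, 9.87 and 7.85 CPM in the former and 1.87, 0.501 and 0.237 CPM in the latter. IL10 went the other way, at 0.198, 0.814, 0.424 and 2.31 CPM in the former and 16.0, 16.9 and 25.5 CPM in the latter. These values lie in separate clusters, so no correlation was computed, and the part of B cell content in them was not tested.

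MLN tumors showed a like order for LTB and IL12A. The B cell marker level was 6.56, 7.37 and 7.67 in mice 1615, 1610 and 1616, where LTB was 92.5, 141 and 71.8 CPM and IL12A 0.729, 1.36 and 0.899 CPM. It was 9.24, 9.29, 9.48 and 9.91 in mice 1613, 1609, 1614 and 1611, where LTB was 231, 289, 225 and 411 CPM and IL12A 4.33, 5.12, 3.74 and 15.0 CPM. IL10 did not keep that order, since the MLN tumor of mouse 1611 had both the highest B cell marker level and the highest IL10 (15.9 CPM) of the MLN tumors. Activated cells lay apart from this order as well: at a B cell marker level of 9.78 to 9.94, near that of the MLN tumor of mouse 1611, their LTB was at most 66.8 CPM.

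**Figure D3:**
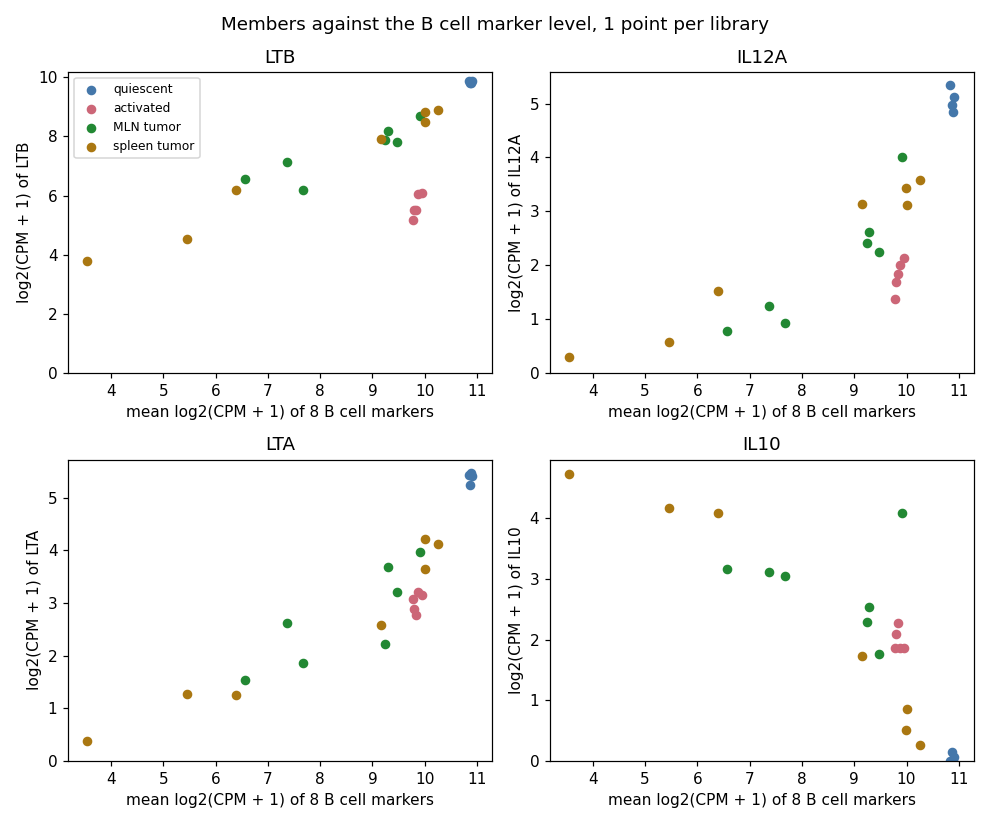
Level of LTB, IL12A, LTA and IL10 (y axes, log2(CPM + 1)) against the mean log2(CPM + 1) of 8 B cell markers (x axis), 1 point per library, colored by group. In tumors LTB runs from 13.0 CPM at the lowest marker level (3.55) to 474 CPM at the highest (10.3). In the panel of LTB activated cells lie below tumors of a like marker level.

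The last comparison asks whether the tumor site matters. No member and no gene passed in edgeR between the 7 MLN and 7 spleen tumors (0% called; 511 of 11637 genes and 1 member, TNFSF11, were under 0.05 unadjusted). A fit blocked by mouse over the 6 paired animals called 0 genes in edgeR too, limma called 0 in each of its settings, and DESeq2 called 20 genes, TNFSF11 among them (log2 change 3.36, adjusted p = 0.0338). The largest difference of a member was in TNFSF11, with an edgeR log2 change of 3.24 ± 0.75 and 3.74 ± 0.83 with the mouse block (adjusted p = 0.9996 and 0.886).

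Within mice TNFSF11 and CCL22 were the members that went 1 way throughout. TNFSF11 was higher in the MLN tumor in 6 of 6 pairs, at 2.56 against 0.0992 CPM in mouse 1610, 0.299 against 0.118 in 1611, 0.506 against 0.0608 in 1613, 2.22 against 0.0446 in 1614, 0.729 against 0 in 1615 and 0.749 against 0.100 in 1616. The spleen values rest on 0 to 2 counts each, and a count of 0 in mouse 1615 allows up to 0.159 CPM. CCL22 was higher in the MLN tumor in 6 of 6 pairs, at 3.16 against 2.13 CPM in mouse 1610, 9.37 against 0.237 in 1611, 11.3 against 9.61 in 1613, 12.3 against 0.579 in 1614, 4.44 against 2.07 in 1615 and 2.25 against 0.702 in 1616. For each of these genes the 2-sided exact permutation test over the signs of the pairs gave p = 0.0312, unadjusted, which is the smallest that 6 pairs allow, and 9 members were tested in this way. The other 7 members went both ways, with exact permutation p of 0.688 to 0.969.

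Markers of other cells also differed between the tumors of a pair. The stromal marker level was higher in the MLN tumor in each of the 6 mice, for example 4.36 against 1.71 in mouse 1614 and 1.31 against 0.62 in mouse 1610. The T cell marker level was 5.66 against 2.25 in mouse 1610, and it was higher in the MLN tumor in 4 of 6 mice and lower in mice 1614 (3.29 against 3.46) and 1616 (1.31 against 2.62). Erythroid and platelet marker levels were lower in the MLN tumor in 6 of 6 mice, for erythroid markers 3.45 against 8.36 in mouse 1611. The dendritic marker level was higher in the MLN tumor in 3 mice and lower in 3. The part of these cells in the differences of TNFSF11 and CCL22 was not tested. The pairs could differ strongly in a member without a common direction: in mouse 1611 LTB was 411 CPM in the MLN and 13.0 CPM in the spleen tumor, while in mouse 1615 it was 92.5 and 447 CPM. The B cell marker level differed in the same direction, at 9.91 and 3.55 in mouse 1611, and it was 6.56 in the MLN tumor of mouse 1615, below that of its spleen tumor.

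**Figure D4:**
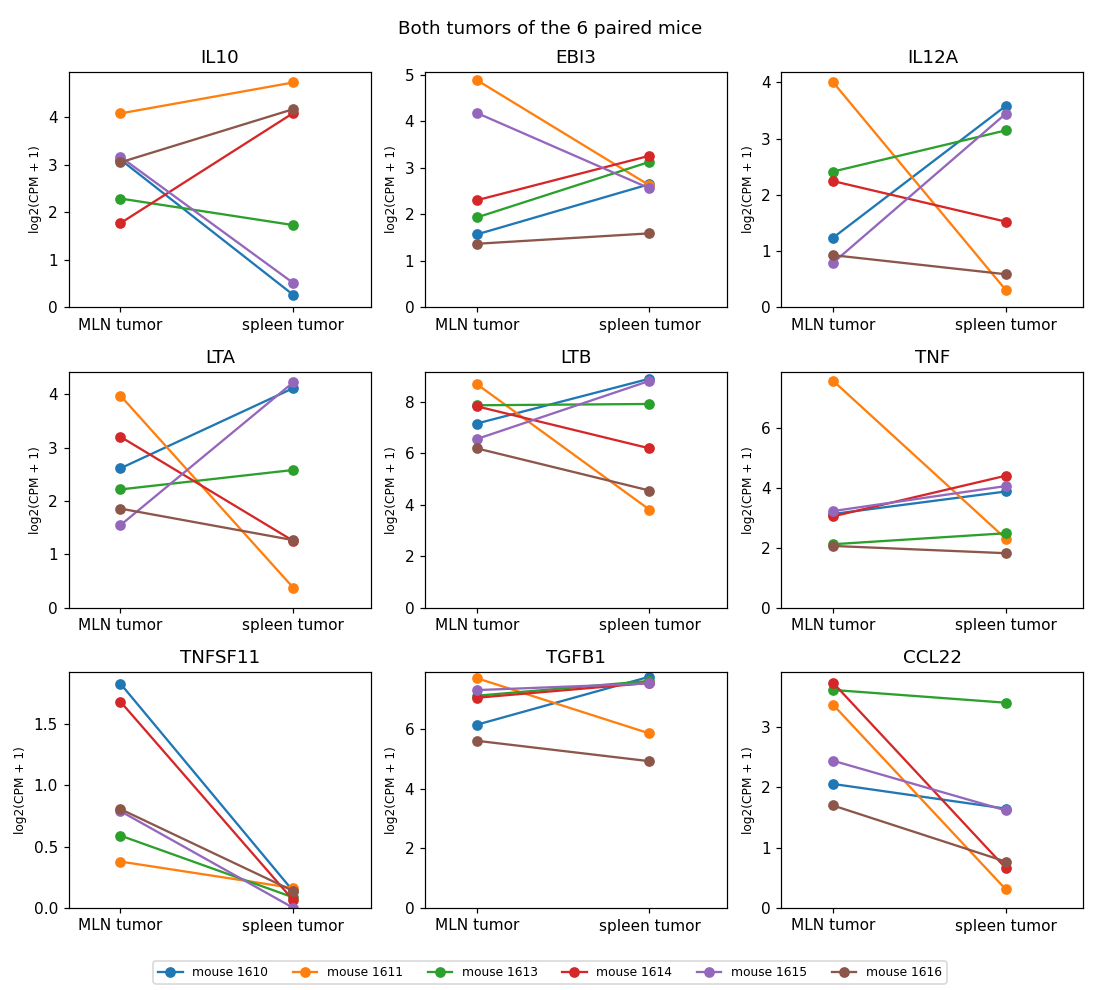
Level of each gene (y axis, log2(CPM + 1)) in the MLN and spleen tumor of the 6 mice that gave both, 1 line per mouse. The lines of TNFSF11 and CCL22 fall from MLN to spleen in 6 of 6 mice, and those of the other genes go both ways.

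The receptors of these signals are set beside them. Of 18 receptor genes listed 16 were tested. In activated against quiescent cells 2 were higher and 10 lower (all genes 25.5% and 34.1%), and in tumors against quiescent cells 9 were higher and 4 lower (all genes 36.9% and 31.9%), with a median log2 change of 1.13 against 0.08 over all genes. The TNF receptor TNFRSF1A rose by 4.32 ± 0.57 (adjusted p = 1.22e-05), from 2.03 ± 1.29 CPM (SD, n = 4) in quiescent cells to 39.9 ± 22.2 (SD, n = 7) in MLN and 43.3 ± 40.8 CPM (SD, n = 7) in spleen tumors. The lymphotoxin receptor LTBR rose by 4.0 ± 0.64 (adjusted p = 6.86e-05), from 0.965 ± 0.649 CPM (SD, n = 4) to 15.7 ± 9.21 and 15.4 ± 19.1 CPM (SD, n = 7 each). TNFRSF11A, the receptor of TNFSF11, rose by 2.04 ± 0.67 (adjusted p = 0.0128), and TGFBR3, a TGF-beta co-receptor, by 4.35 ± 0.73 (adjusted p = 9.58e-05). TGFBR3 stayed under 1 CPM in every control library and passed the filter on low values only through the tumors. The macrophage, neutrophil, T cell and stromal markers given above rose in the same tumors. In activated against quiescent cells 8 of 10 macrophage and 5 of 10 T cell markers were lower. The part of these cells in the receptor levels was not tested in either comparison. IL27RA (-1.40 ± 0.32, adjusted p = 0.00125), TGFBR2 (-1.40 ± 0.20, adjusted p = 2.22e-05) and IL10RA (-0.80 ± 0.32, adjusted p = 0.0343) fell instead, as did IL10RB.

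Partners and activators of the members were listed as well, 13 genes of which 10 were tested. In activated against quiescent cells 1 was higher and 5 lower, beside 25.5% and 34.1% of all genes. In tumors against quiescent cells 5 were higher and 1 lower, beside 36.9% and 31.9% of all genes. LRRC32, which holds latent TGF-beta at the cell surface, was the gene that rose in activated cells (4.07 ± 0.56, adjusted p = 1.22e-05), and it also rose in tumors (2.54 ± 0.51, adjusted p = 0.000448), while TGFB1 itself fell in both comparisons. IL12B, the chain that makes IL12 with IL12A, fell in activated cells (-3.26 ± 0.72, adjusted p = 0.000997) and rose in tumors (2.15 ± 0.60, adjusted p = 0.00464). It averaged 0.592 CPM in quiescent cells, 0.0613 CPM in activated cells, 1.83 ± 1.51 CPM (SD, n = 7) in MLN and 2.89 ± 2.56 CPM (SD, n = 7) in spleen tumors. Of 6 dendritic markers 3 were lower and 1 higher in activated than in quiescent cells, and 5 were higher in tumors. Of 10 macrophage markers 8 were lower in activated cells and 10 higher in tumors. The part of these cells in the levels of IL12B and the other partners was not tested. IL27, the partner of EBI3 in the cytokine of that name, did not pass the filter on low values and lay at 0.0526 ± 0.0605 CPM (SD, n = 5) in activated cells, where EBI3 was highest.

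Other ligands were compared in the same way, against a background of 36.9% of all genes higher and 31.9% lower in tumors than in quiescent cells. Macrophage, neutrophil and stromal markers rose in the same tumors, and their part in these ligands was not tested. Of 8 tested further TNF family ligands 5 were higher and 0 lower against quiescent cells, led by TNFSF8 (5.02 ± 0.77, adjusted p = 4.27e-05), the CD30 ligand, and TNFSF14 (3.76 ± 0.77, adjusted p = 0.000537). Of 24 further chemokines listed 11 were tested, and 10 were higher and 0 lower in that comparison. TNFSF8, TNFSF14, IL1A and the chemokines CCL8, CXCL12, CXCL13 and CXCL14 stayed under 1 CPM in every control library. These genes passed the filter on low values only through the tumors, so their higher level there was largely fixed by the filter. CCL8, a monocyte attractant, had 0 counts in all control libraries and averaged 4.99 ± 3.44 CPM (SD, n = 7) in MLN and 0.712 ± 0.841 CPM (SD, n = 7) in spleen tumors. Of 7 tested interleukins and growth factors 5 were higher and 1 lower, with IL1A and IL1B, inflammatory cytokines of myeloid cells, among the former. Their levels were very uneven: in MLN tumors IL1A ran from 0.226 over a median of 1.20 to 129 CPM and IL1B from 4.72 over 9.05 to 852 CPM. IL6, the growth factor of the transgene's name, averaged 62.5 ± 9.05 CPM (SD, n = 5) in activated cells against 0.675 ± 0.543 CPM (SD, n = 7) in MLN and 0.434 ± 0.497 CPM (SD, n = 7) in spleen tumors under the table's IL6 entry. In activated against quiescent cells 1 of 11 chemokines was higher and 5 were lower, and 3 of 8 TNF family ligands were higher and 1 lower, beside 25.5% and 34.1% of all genes. CCL22 rose in activated cells, whereas CXCL9 fell (-7.06 ± 0.78, adjusted p = 1.16e-06) from a mean of 2.82 ± 2.21 CPM (SD, n = 4) in quiescent cells. Of 10 macrophage markers 8 were lower in activated than in quiescent cells too. The part of such cells in the ligands lower in activated cells was not tested.

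Genes whose pattern over the 23 libraries was most like that of a member were found by Pearson's r of log2(CPM + 1) among the 11637 genes tested. These are descriptions over libraries of the same 4 groups. For LTB the closest were ICOSLG (r = 0.98) and another CLEC2D profile (0.976), for LTA the complement receptor CR2 (0.968) and PPCS (0.961), and for IL12A PGAP1 (0.973) and FGD3 (0.963). For TGFB1 they were EVI2B (0.981) and GSDMD (0.979). IL10 was followed most closely by GLRX (0.955) and CEBPB (0.939), and CCL22 by LAD1 (0.956) and TNFRSF8 (0.926). EBI3 lay closest to ANKRD33B (0.927) and ENOX2 (0.926). For TNF the closest were NFKBIA (0.894) and TNFAIP3 (0.871), both inhibitors in the NF-kB pathway, and for TNFSF11 DOCK3 (0.86) and the T cell transcription factor LEF1 (0.792).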

How the data were processed

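RNA sequencing of 23 libraries was analysed. The authors deposited 1 table of estimated counts per gene under human symbols. The values are not whole and sum to different totals per library, so they are not TPM, which the table's name speaks of. Per the submitters' processing notes, Trim Galore 0.4.0, DESeq2 and build GRCm39 were used, and the labels name neither a quantifier nor how human names were assigned. Of 61651 entries, 21282 had values and 17047 were above 0. Identical entries were merged into 15881 profiles, and the profile with the highest mean stood for a name.

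Values were rounded and tested with edgeR 4.0.16 in R 4.3.3 (quasi-likelihood, TMM, 2-sided), with limma 3.58.1 and DESeq2 1.42.0 as alternatives. Adjusted p-values are Benjamini-Hochberg over 11637 genes and come from edgeR where no other tool is given. CPM values are scaled by TMM over the 23 libraries. SE was taken from edgeR's F statistic (size of the log2 change over the root of F). Tests were checked on simulated data. Counts of paired tumors were summed per mouse, paired as the series' design text tells. The 2 tumors of a mouse, each as a deviation from its tissue's mean, correlated between -0.49 and 0.722. Intervals and floors cover counting error only. The members and lists were chosen with earlier results of these data known. Genes named besides the members are receptors, partners, the strongest changes per list and the 2 closest patterns per member.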

Additional observations from a re-analysis of the deposited data

Results flagged for a closer look

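In 4 of the 36 groups of libraries (9 genes in 4 groups each) 1 library stood apart by Dixon's criterion on CPM values. Chance gives this to about 1 in 20 groups if values are normally distributed. Tumor values were skewed (TNF in MLN tumors had a mean of 33.4 and a median of 7.68 CPM), so that rate need not hold here. The MLN tumor of mouse 1611 did so for TNF (187 CPM, the next at 17.1), IL12A (15.0 CPM, the next at 5.12) and IL10 (15.9 CPM, the next at 7.95). The same tumor had the highest LTB, LTA, EBI3 and TGFB1 of the MLN tumors and a low plasma cell marker level (5.77). Quiescent library 4 stood apart for TNFSF11 (0.809 CPM on 13 counts, the next at 0.380 CPM).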

How the results depend on the processing

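Of 743 values of single members under the alternatives, 661 kept direction and call, 14 lost a call, 23 gained one and 45 turned direction; the cause was not tested. Between 7 and 9 members passed in activated against quiescent cells, 6 and 8 in tumors against quiescent cells, 4 and 7 in tumors against activated cells and 0 and 1 between tumor sites, where DESeq2 called 1 member and 20 genes. Each value that turned was past the threshold in neither setting, except IL12A. For tumors against quiescent cells TNFSF11 turned to 0.059 with RLE factors, 0.071 in DESeq2 and 1.11 in MLN tumors alone (-0.29 to 0.36 leaving out a library or mouse), and TNF to 0.27 in MLN tumors alone. Against activated cells MLN tumors alone gave -0.050 for LTA, 0.060 for TNF and -0.12 for TGFB1, quantile normalization gave -0.31 for IL10, -0.35 for IL12A and -0.74 for LTA, and limma gave -0.030, -0.031 and -0.023 for TGFB1 with pseudocounts of 1, 0.5 and 5. Between sites limma with these pseudocounts gave 0.50, 0.70 and 0.081 for IL10, 0.23, 0.33 and 0.031 for LTA and 0.53, 0.54 and 0.47 for LTB, quantile normalization 0.42, 0.20 and 0.56 for IL10, LTA and LTB, and DESeq2 -0.33 for TNF. Pairing by mouse as a block gave 0.57 for IL10, -0.089 for EBI3, 0.38 for LTA, 0.57 for LTB and -0.073 for TNF, with 0 members called. Without 1 mouse the site values ran from -1.24 to 0.11 for IL12A, -0.67 to 0.37 for LTA, -0.61 to 0.23 for LTB, -0.51 to 2.17 for TNF and -0.42 to 0.082 for TGFB1. In the controls the shared label number is no pairing by the labels, samples of equal number correlated between -0.018 and 0.003, and a block on it called 9 members. The filter of 5 CPM left no TNFSF11 value. Depth limits TNFSF11 and IL10 in quiescent cells and TNFSF11 in spleen tumors, where a library holds 0 to 13 counts. It also limits IL10 in the spleen tumors of mice 1610 and 1615, with 4 and 8 counts.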
